A study of Homo sapiens with 5 samples.

Results

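The replacement histone genes make histones outside the replication-dependent program of S phase. The set held 10 genes of the 26485 in the deposited count files, chosen by name as listed replication-independent histone genes: H3F3A and H3F3B, H2AFZ and H2AFV, H2AFX, H2AFJ, H2AFY and H2AFY2, and the linker histone genes H1F0 and H1FX. All 10 had reads in each library. They were compared between control and AKAP12 knockdown libraries of SW480, a widely used line grown from a human colorectal carcinoma. These cells carried dCas9-KRAB, in which a Cas9 that cannot cut is joined to a repressor domain that silences the gene a guide RNA points to, and were transduced either with sgControls (2 libraries) or with sgAKAP12 (3 libraries). Both groups carried the repressor. Titles and one label field call the groups shControl and shAKAP12, and the treatment protocol is followed here. RNA was taken 48 hours after seeding and sequenced from its 3′ end with a QuantSeq FWD kit, which primes on poly(A). All libraries come from 1 line, and nothing states that replicates are separate cultures, so a p-value covers only the spread among these libraries, which may be technical.

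Most histone protein in dividing cells comes from the clustered HIST genes, whose messages are made in S phase and end in a conserved stem-loop instead of a poly(A) tail. Replacement histone genes lie outside those clusters, often contain introns, are transcribed through the cell cycle and end in poly(A). Their proteins are placed into chromatin by dedicated chaperones and remodelling complexes, where they mark promoters, DNA breaks or repressed regions.

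The ends of the transcripts differ between the 2 classes, and they are shown because the libraries were primed on poly(A). In the GENCODE release 29 transcripts, the histone stem-loop, searched on the transcript strand as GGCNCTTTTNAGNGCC, was present in 31 of 70 HIST genes with a coding transcript, in 34 of 19669 protein-coding genes (0.173%), and in 1 of the 10 replacement genes, H2AFX. The search covers only this exact pattern in annotated transcripts, so a missing match does not show that a gene lacks a stem-loop. HIST1H4C, the HIST gene with the most reads, had no match. H2AFX is known to give both a stem-loop message and a polyadenylated one. Its stem-loop lies 1044 bases before the end of its 1614-base transcript, whereas those of HIST1H2AE and HIST1H4H lie 51 and 18 bases from theirs. The shortest coding transcript with a match was used, and HIST1H4H has 2 coding transcripts. The stem-loop is in capitals in these stretches (hg38, 5′ to 3′ on the transcript strand):
H2AFX (chr11:119094889-119094918, minus strand): acaaaGGCCCTTTTAAGGGCCaccaccgcc
HIST1H2AE (chr6:26217412-26217441, plus strand): ccaaaGGCTCTTTTCAGAGCCacccacctt
HIST1H4H (chr6:26285122-26285151, minus strand): ccaaaGGCCCTTTTCAGGGCCgcccacttt

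A poly(A) signal, AATAAA or ATTAAA within the last 50 bases of a coding transcript, was present in 9 of the 10 replacement genes, in 22 of 70 HIST genes and in 81.9% of protein-coding genes. Like H2AFX, 20 of the 70 HIST genes held both a stem-loop and a poly(A) signal among their coding transcripts, and HIST1H4H was among them. The search found no poly(A) signal in H2AFY. It covers annotated transcript ends only, so a missing match does not show that a gene lacks a signal. The signals are in capitals for the 6 genes, other than H3F3A, whose control and knockdown groups did not overlap (hg38, 5′ to 3′ on the transcript strand):
H3F3B (chr17:75776434-75776463, minus strand): atgagactaaAATAAAatttttgaagttaa
H2AFZ (chr4:99948088-99948117, minus strand): ggataagttcAATAAAggtcatatcccaaa
H2AFX (chr11:119093875-119093904, minus strand): aattttATTAAAggattgttttttttttaa
H2AFJ (chr12:14774997-14775026, plus strand): cgggagccAATAAAgttggtgaaaatcgtt
H1F0 (chr22:37807405-37807434, plus strand): ctttaaAATAAAttggaaaagggagaaact
H1FX (chr3:129314771-129314800, minus strand): ttgggcacAATAAAgcgtttaaacctttca

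Promoters are shown for the H2A.Z genes and H2AFX, since H2AFX and H2AFZ rose while H2AFV, the other H2A.Z gene, did not pass the test. RefSeq windows of 300 bases (250 before to 50 after a start, GRCh38.p14) were at hand for 9 of the 10 genes. The letters CCAAT, searched on both strands, occurred 4 times in the windows of H2AFX, H2AFV and H3F3B and 3 times in those of H2AFZ and H2AFJ, against 3 or more in 3.26% of all 35116 windows. The letters TATAAA, searched on the gene's strand, occurred in the windows of H2AFX, H2AFZ, H3F3B and H1FX, against 7.33% of all windows, and not in that of H2AFV. The 250 bases before the start follow, 5′ to 3′ on the gene's strand, with CCAAT (or ATTGG, its reverse complement) and TATAAA in capitals. A match describes the letters only and is no evidence of a bound factor.
H2AFZ (chr4:99950276-99950525, minus strand): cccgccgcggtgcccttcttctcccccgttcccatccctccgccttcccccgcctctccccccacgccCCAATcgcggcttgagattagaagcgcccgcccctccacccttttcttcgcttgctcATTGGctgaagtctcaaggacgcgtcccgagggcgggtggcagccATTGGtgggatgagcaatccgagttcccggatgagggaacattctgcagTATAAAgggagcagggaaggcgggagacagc
H2AFV (chr7:44848088-44848337, minus strand): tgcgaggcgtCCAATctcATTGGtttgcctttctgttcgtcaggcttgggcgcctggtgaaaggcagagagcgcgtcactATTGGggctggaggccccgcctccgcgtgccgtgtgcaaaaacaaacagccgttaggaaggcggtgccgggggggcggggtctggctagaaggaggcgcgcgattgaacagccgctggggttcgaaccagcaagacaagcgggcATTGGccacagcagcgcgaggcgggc
H2AFX (chr11:119095466-119095715, minus strand): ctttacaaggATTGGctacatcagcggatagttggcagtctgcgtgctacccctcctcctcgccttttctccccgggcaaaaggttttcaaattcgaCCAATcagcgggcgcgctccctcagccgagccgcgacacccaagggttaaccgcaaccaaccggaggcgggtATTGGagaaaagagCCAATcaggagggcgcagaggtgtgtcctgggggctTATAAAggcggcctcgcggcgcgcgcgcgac

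Library totals were 4935096 and 8670141 counted reads in the controls, against 6890868 to 9311026 in the knockdown. The 2 controls stood apart from each other: chi-square per degree of freedom, over gene counts, was 103.9 between them and 5.30 to 8.67 between knockdown libraries. In control 1 the 10 most abundant genes took 20.2% of reads and short RNA genes 8.60%, against 9.13% and 1.66% in control 2 and at most 5.65% and 0.880% in the knockdown. TERT also set the groups apart: control 1 held 366479 of its reads and control 2 held 306715. Knockdown libraries 1, 2 and 3 held only 4198, 17172 and 12480. The groups thus differed in more than AKAP12, and the cause of the TERT gap was not tested. The targeted gene AKAP12, a scaffold for protein kinases A and C, was at 2870 and 1550 CPM (counts scaled to library totals with TMM factors) in the controls and at 1159, 1063 and 1008 CPM in the knockdown, below both controls. Its log2 fold change of -1.04 (SE 0.31) missed the threshold (edgeR adjusted p = 0.0513), and it was -0.52 without control 1 and -1.42 without control 2. DESeq2 (adjusted p = 0.0110) and limma-voom (adjusted p = 0.0453) placed AKAP12 past it. With the replicate number as a block it did not pass (edgeR adjusted p = 0.298). The authors' deposited table gives -1.06 (DESeq2 adjusted p = 0.0124). Scaling to library size alone moved the median log2 fold change of all genes by 0.20 and the calls from 1624 higher and 1658 lower to 1668 higher and 982 lower. The number of cells and the RNA per cell cannot be told apart in such bulk libraries.

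The comparison asks how each gene differs between AKAP12 knockdown and control cells. Of 9 replacement genes, leaving H3F3A aside, 4 rose in the knockdown (H3F3B, H2AFZ, H2AFX and H1F0) and none fell, by edgeR's quasi-likelihood test with Benjamini-Hochberg adjustment over 14536 tested genes and a threshold of 0.05. The background was 11.2% of tested genes higher and 11.4% lower (by DESeq2, 15% and 15.7%). Of those not past the threshold, 2 were lower at an unadjusted p under 0.05, H2AFJ and H1FX, and both were called lower by DESeq2. Over all 14536 tested genes, 5890 had an unadjusted p under 0.05 in either direction. Counts at an unadjusted p, here and below, are to be read beside that share. H3F3A reached the filter on low counts only through the knockdown libraries, so it had to differ to be tested at all. Its call as higher is a description, and counts over the 10 genes include it. The median log2 fold change was 0.77 over the 10 genes and 0.04 over all tested genes. Groups did not overlap for 7 of 10 genes (5 higher, 2 lower), near the 60.1% of all tested genes. The knockdown libraries lay close together, with highest over lowest CPM between 1.01 and 1.53, while 7 of the 10 genes were higher in control 2 than in control 1.

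Each control was therefore left out in turn. With 1 control left, the spread in the fit comes from the knockdown libraries alone, which lie far closer together than the controls. Such fits are therefore read for effect sizes only, here and below. The median log2 fold change of the 10 genes was 0.39 without control 1 and 1.35 without control 2. Without any 1 of the 3 knockdown libraries, no gene in the whole table passed the edgeR threshold, so 0 of the 10 did, although 3774 to 4109 genes and 5 to 7 of the 10 had an unadjusted p under 0.05. Every edgeR call below was thus lost in these fits, which hold fewer libraries. The log2 fold changes moved less: 2.10 to 2.27 for H2AFX, 2.67 to 2.69 for H2AFZ, 1.35 to 1.51 for H1F0 and 0.80 to 0.83 for H3F3B.

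**Figure D1:**
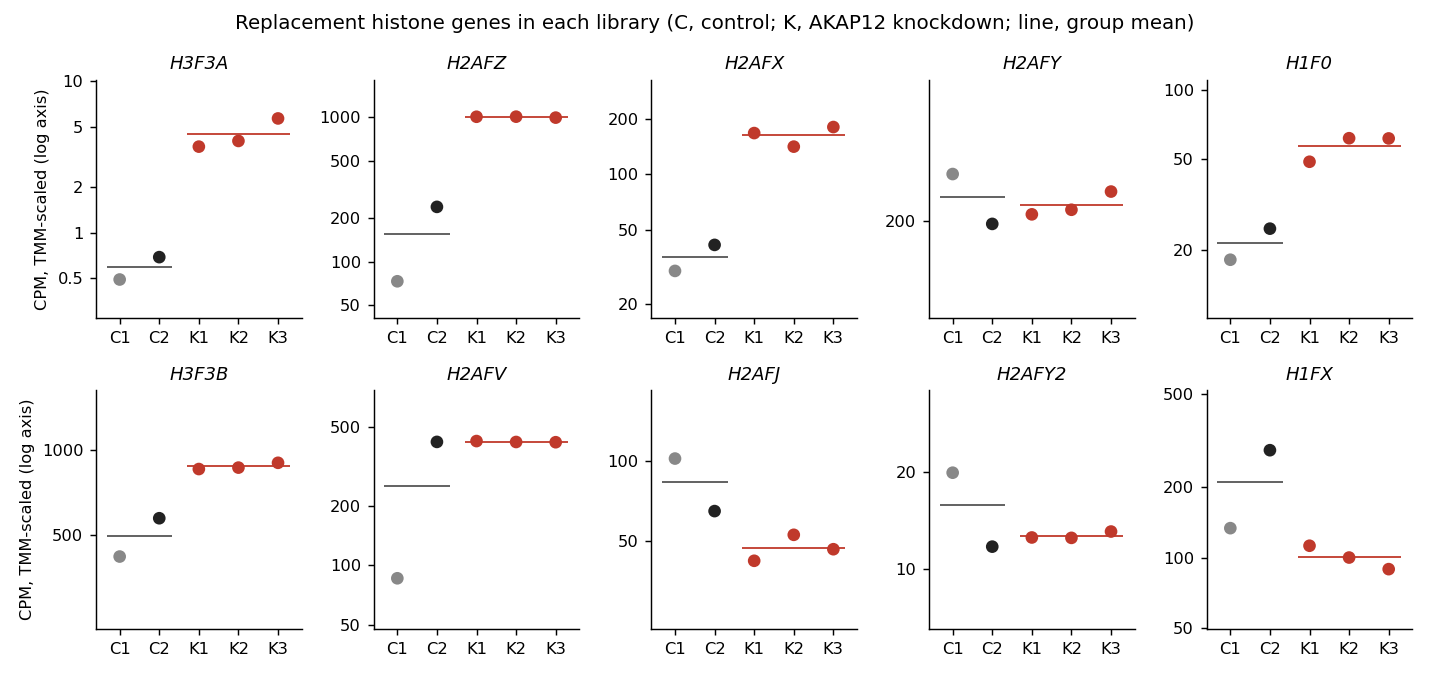
CPM of each of the 10 genes (y, log axis, TMM-scaled, with a range of its own per gene) in each library (x: C, control; K, knockdown), with group means as lines. The 3 knockdown points lie within 1.53-fold of each other for every gene, while the controls of H2AFZ, H2AFV and H1FX lie 3.27-fold, 4.87-fold and 2.15-fold apart.

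H3.3, the replacement form of histone H3 found in active genes and at telomeres, is made from H3F3A and H3F3B, which encode the same protein. H3F3B (chr17:75776434-75779935, minus strand) was at 420.3 and 573.8 CPM in the controls and at 855.6, 865.6 and 900.1 CPM in the knockdown (873.8 ± 23.3, SD, n = 3). All knockdown libraries were above both controls. H3F3B rose 1.76-fold, with a log2 fold change of 0.81 (SE 0.23, 95% interval 0.26 to 1.37, edgeR adjusted p = 0.0477). That value lay near the threshold, and with offsets for transcript GC content the log2 fold change was 0.59 (edgeR adjusted p = 0.0980), in a range over 14 alternatives of 3.2e-06 to 0.300.

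H3F3A (chr1:226062707-226072002, plus strand) had few reads, 2 and 6 in the controls and 36, 30 and 46 under knockdown, or 0.490 and 0.688 CPM against 3.69, 4.02 and 5.66 CPM (4.45 ± 1.05, SD, n = 3). The groups did not overlap. Given only as a description, since it was tested only because the knockdown libraries are high, its log2 fold change was 2.82 (SE 0.53, 95% interval 1.57 to 4.08, edgeR adjusted p = 0.0208). The ratio of reads scaled by library was 7.06, with an exact interval of 3.46 to 16.8 that covers counting error only. Without control 2 that ratio rested on 2 control reads and was 9.01 (2.44 to 75.3).

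The H3F3A value is uncertain because it has a processed copy and reads that map to several places were not counted. The deposited row of the processed copy H3F3AP4 holds 4 intervals inside H3F3A besides its own on chromosome 2, and per the file headers reads were counted for every gene they overlap, with no option to count reads that map to several places. Its 10 and 16 control reads compare with 60, 46 and 77 knockdown reads, all above both controls. In place of H3F3A this row gave a log2 fold change of 1.79 (adjusted p by edgeR 0.0300, and 0.196 with the replicate number as a block), an alternative chosen after seeing the data. Reads in the shared intervals are counted in both rows, so the H3F3AP4 row is no independent check of H3F3A. How many H3F3A reads were dropped as reads that map to several places was not tested.

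H2A.Z, the H2A variant placed beside active promoters, is made from H2AFZ (H2A.Z.1) and H2AFV (H2A.Z.2), whose proteins are nearly identical. H2AFZ (chr4:99948087-99950355, minus strand) was at 73.2 and 239.4 CPM in the controls and at 1004, 1006 and 990.7 CPM in the knockdown (1000 ± 8.37, SD, n = 3). Each knockdown library was above both controls. H2AFZ rose 6.38-fold, with a log2 fold change of 2.67 (SE 0.50, 95% interval 1.48 to 3.87, edgeR adjusted p = 0.0209). The size depends on the control used, at 2.06 without control 1 and 3.77 without control 2.

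H2AFV (chr7:44826889-44848126, minus strand) was at 86.0 and 418.9 CPM in the controls and at 422.9, 418.4 and 417.3 CPM in the knockdown (419.5 ± 2.99, SD, n = 3). Control 2 lay among the knockdown libraries and control 1 far below them. The log2 fold change of 0.73 (SE 0.58, 95% interval -0.64 to 2.10) did not pass (edgeR adjusted p = 0.378). It was 0.00 without control 1 and 2.28 without control 2, so its value follows which control is used.

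H2AFX (chr11:119093875-119095467, minus strand) encodes H2A.X, the variant phosphorylated around DNA breaks, and has the stem-loop shown above. It was at 30.1 and 41.6 CPM in the controls and at 167.1, 141.2 and 180.1 CPM in the knockdown (162.8 ± 19.8, SD, n = 3). The groups were far apart. H2AFX rose 4.52-fold, with a log2 fold change of 2.18 (SE 0.25, 95% interval 1.59 to 2.76, edgeR adjusted p = 0.0131). It was 1.97 without control 1, 2.43 without control 2 and 2.57 with GC offsets, the last being for a transcript of 66.4% GC.

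H2AFJ (chr12:14774336-14778002, plus strand) encodes H2A.J, a variant known to accumulate in senescent cells. It was at 102.1 and 64.9 CPM in the controls and at 42.3, 52.9 and 46.7 CPM in the knockdown (47.3 ± 5.33, SD, n = 3). The knockdown libraries were all below both controls, but the log2 fold change of -0.82 (SE 0.25, 95% interval -1.41 to -0.22) missed the threshold (edgeR adjusted p = 0.0566). DESeq2 placed it past the threshold (DESeq2 adjusted p = 0.0340), in a range over 14 alternatives of 5.5e-06 to 0.286. It was -0.46 without control 1 and -1.12 without control 2.

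MacroH2A carries a large globular domain behind its H2A part and is known from repressed chromatin such as the inactive X chromosome. H2AFY, the gene of macroH2A1 (chr5:135334381-135399887, minus strand), was at 268.2 and 196.6 CPM in the controls and at 208.6, 214.7 and 240.5 CPM in the knockdown. The knockdown libraries lay between the 2 controls, with a log2 fold change of -0.07 (SE 0.22, 95% interval -0.58 to 0.44, edgeR adjusted p = 0.831) that turned to 0.16 with library size scaling and to 0.17 without control 1.

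H2AFY2, the gene of macroH2A2 (chr10:70052601-70112284, plus strand), was at 19.8 and 11.7 CPM in the controls and at 12.5, 12.5 and 13.0 CPM in the knockdown. Here too the knockdown libraries lay between the controls. The log2 fold change was -0.30 (SE 0.29, 95% interval -0.99 to 0.40, edgeR adjusted p = 0.476), and 0.11 without control 1. H2AFY overlaps C5orf66 and H2AFY2 overlaps AIFM2, and with no strand option in the counting their reads cannot be told apart where they overlap.

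Linker histones bind the DNA that enters and leaves the nucleosome. H1F0 (chr22:37805107-37807436, plus strand) encodes H1.0, known to build up in resting and differentiated cells. It was at 18.1 and 24.8 CPM in the controls and at 48.5, 61.5 and 61.3 CPM in the knockdown (57.1 ± 7.44, SD, n = 3), with every knockdown library above both controls. H1F0 rose 2.64-fold, with a log2 fold change of 1.40 (SE 0.25, 95% interval 0.81 to 1.99, edgeR adjusted p = 0.0188), and was 1.20 without control 1 and 1.65 without control 2.

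H1FX (chr3:129314771-129316277, minus strand) encodes H1.X, a linker variant of distinct sequence. It was at 133.7 and 287.9 CPM in the controls and at 112.5, 100.2 and 89.4 CPM in the knockdown (100.7 ± 11.6, SD, n = 3). The knockdown libraries were below both controls, yet the controls were 2.15-fold apart. The log2 fold change of -1.07 (SE 0.33, 95% interval -1.84 to -0.29) missed the threshold (edgeR adjusted p = 0.0563), and it was -1.51 without control 1 and -0.41 without control 2. DESeq2 placed it past the threshold (DESeq2 adjusted p = 0.0155), in a range over 14 alternatives of 2.3e-08 to 0.256. H1FX overlaps the antisense gene H1FX-AS1, from which its reads cannot be told apart in counts made without strand.

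**Figure D2:**
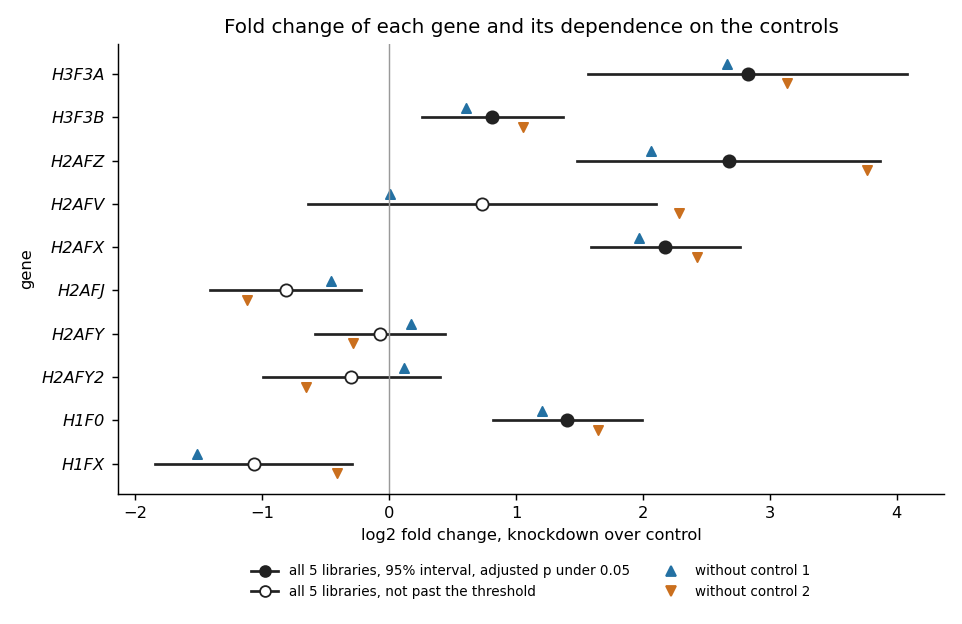
Log2 fold change, knockdown over control (x), of each of the 10 genes (y) with its 95% interval from edgeR; filled circles pass the adjusted threshold, and triangles are the values without control 1 or control 2. The triangles of H2AFV lie at 0.00 and 2.28, and those of H2AFX at 1.97 and 2.43.

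The authors' deposited table gives similar sizes for the 10 genes, and its direction was read from its correlation of 0.999 with the fitted values across genes. In the authors' deposited table the log2 fold change was 2.85 for H3F3A (adjusted p = 0.00243), 2.67 for H2AFZ (3.43e-07), 2.16 for H2AFX (1.70e-11), 1.39 for H1F0 (0.000139) and 0.80 for H3F3B (0.00936), as the authors' DESeq2 columns give them. Under a threshold of 0.05 the authors' deposited table also places H2AFJ at -0.84 (DESeq2 adjusted p = 0.0445) and H1FX at -1.07 (0.0210), the 2 genes that edgeR left outside.

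Paralog genes were next compared inside each library, where no scaling enters. Reads of H2AFZ over reads of H2AFV were 0.852 and 0.571 in the controls, against 2.37, 2.40 and 2.37 under knockdown. H2AFV reads outnumbered H2AFZ reads in both controls, and the order was turned in every knockdown library, a 3.42-fold difference. Reads of H1F0 over H1FX were 0.136 and 0.0861 in the controls, against 0.431, 0.614 and 0.686 under knockdown, a 5.23-fold difference with no overlap. For H3F3A over H3F3B the log2 ratio was -9.42 and -9.59 against -7.84, -7.73 and -7.30, a 3.69-fold difference that rests on the few H3F3A reads and falls from 1.88 to 0.93 on the log2 scale when 5 reads in place of 0.5 are added to each count.

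The log2 ratio of H2AFY over H2AFY2 was 3.75 and 4.06 in the controls, against 4.06, 4.10 and 4.20 under knockdown, so that control 2 lay within the knockdown range. Each of the other 3 ratios had a two-sided exact permutation p = 0.1, the smallest that 2 against 3 libraries can give, and 0.133 after adjustment over the 4 ratios; for H2AFY over H2AFY2 the exact p was 0.2 (adjusted 0.2). None passes 0.05, which the design cannot reach.

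**Figure D3:**
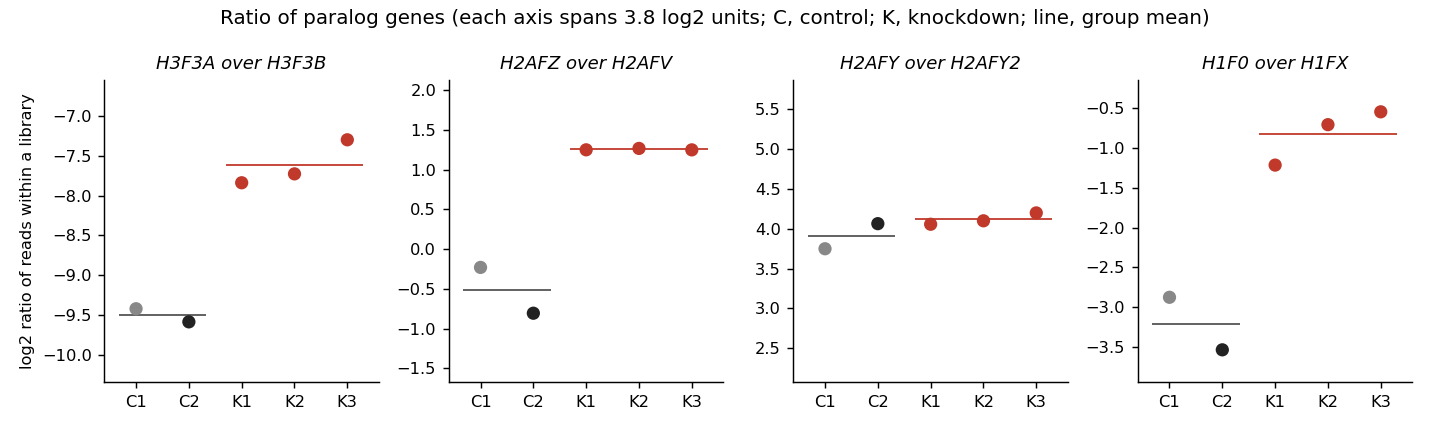
Log2 ratio of the reads of paralog genes (y, each axis spanning 3.8 units) in each library (x: C, control; K, knockdown), with group means as lines. For H2AFZ over H2AFV the knockdown libraries lie at 1.25, 1.27 and 1.25, above the controls at -0.23 and -0.81.

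The clustered HIST genes that passed the test fell in these poly(A)-primed libraries. Of 73 in the files, 14 had no read in any library and 42 were tested. None was higher by edgeR (1 at an unadjusted p under 0.05, and 1 by DESeq2) and 20 fell (background 11.2% and 11.4%), with a median log2 fold change of -1.68. Of the 20, HIST1H4B, HIST1H3H, HIST1H2AK and HIST1H2BO reached the filter only through the controls, where they are high, so they had to differ to be tested, and 16 did not depend on this. Among the 42 tested, 9 reached it through the controls alone and 4 through the knockdown alone. The median over the 42 was -1.10 without control 1 and -2.21 without control 2. With library size scaling 1 was higher and 15 were lower (background 11.5% and 6.76%), and by limma-voom 13 were lower (background 11.4% higher and 9.76% lower). HIST1H4C, which encodes histone H4 and took 64.2% to 68.0% of all HIST reads, was at 5868 and 2532 CPM in the controls and at 1514, 1633 and 1213 CPM in the knockdown (log2 fold change -1.53, SE 0.38, edgeR adjusted p = 0.0350), and its log2 fold change was -0.80 without control 1 and -2.02 without control 2. HIST1H1C, HIST1H1E and HIST1H1B, which encode replication-dependent linker histones, fell by 0.76, 1.59 and 1.31 on the log2 scale (-0.57, -1.11 and -0.81 without control 1). HIST1H2AJ (-3.69) and HIST2H2AC (-3.42), both H2A genes, had falls that shrank to -1.66 and -1.57 without control 1. Some HIST genes are near-identical copies, and no option to count reads that map to several places was set, so the levels of such genes are uncertain. Whether HIST reads came from polyadenylated messages or from other priming was not tested.

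Set side by side, the 10 replacement genes took 0.0953% and 0.187% of all reads in the controls, against 0.302%, 0.312% and 0.309% under knockdown. The HIST genes took 0.747% and 0.386% in the controls, against 0.245%, 0.260% and 0.198% under knockdown. Replacement over HIST reads was therefore 0.128 and 0.484 in the controls, against 1.23, 1.20 and 1.56 under knockdown, a mean log2 difference of 2.41 with no test. The value was 1.45 without control 1 and 3.37 without control 2, and control 2 lay between control 1 and the knockdown. Within the replacement reads, the share of H2AFZ was 6.36% and 12.9% in the controls, against 34.9%, 35.0% and 33.6% under knockdown. The share of H3F3B ranged from 29.7% to 36.5% over the 5 libraries.

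**Figure D4:**
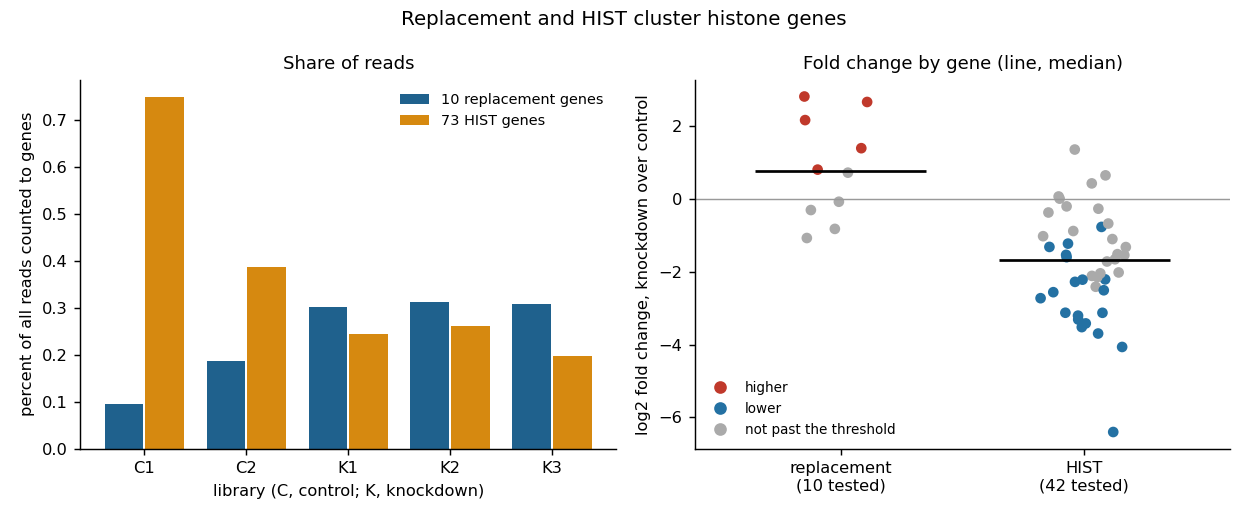
Left, percent of all counted reads (y) taken by the 10 replacement and the 73 HIST genes in each library (x). Right, log2 fold change, knockdown over control (y), of the 10 replacement and 42 tested HIST genes (points; medians as lines at 0.77 and -1.68), coloured by call.

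Genes that handle these histones were read from lists by role. Of 8 tested genes for depositing H3.3, none was higher by edgeR, by DESeq2 or at an unadjusted p under 0.05, and 4 fell (background 11.2% and 11.4%): ASF1A, a chaperone that hands H3 to HIRA (-1.88), HIRA itself (-1.02) and its partners UBN2 (-1.18) and CABIN1 (-0.85). The median of the list was -0.83. This median was -0.44 without control 1 and -1.15 without control 2. ASF1A was at 207.2 and 64.2 CPM in the controls and at 41.2, 31.7 and 37.5 CPM in the knockdown (SE 0.45, edgeR adjusted p = 0.0316), and its log2 fold change was -0.80 without control 1 and -2.49 without control 2. UBN2 was at -0.52 and CABIN1 at -0.51 without control 1. With library size scaling (background 6.76% lower), and by limma-voom (9.76%), 1 of the 8 was lower.

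Of 13 genes of H2A.Z exchange, none was higher by edgeR or DESeq2 (1 at an unadjusted p under 0.05) and 3 fell, against a background of 11.2% and 11.4%: SRCAP, the remodelling enzyme that inserts H2A.Z (-1.55), RUVBL1, an ATPase of that complex and others (-1.35), and ACTL6A, an actin-related subunit (-0.77). SRCAP was at 83.0 and 43.6 CPM in the controls and at 22.6, 23.2 and 18.9 CPM in the knockdown (SE 0.30, edgeR adjusted p = 0.0220). SRCAP was at -1.01, RUVBL1 at -0.71 and ACTL6A at -0.52 without control 1. The median of the list was -0.48. This median was -0.13 without control 1 and -0.74 without control 2. With library size scaling 2 were lower and 1 higher.

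Of 13 general histone chaperone genes, 2 rose and 4 fell, with a median of -0.22. The share higher is near the background of 11.2% (11.4% lower). The median was -0.15 without control 1 and -0.19 without control 2. ASF1B, the ASF1 form of proliferating cells, was at 4.41 and 21.2 CPM in the controls and at 64.3, 75.8 and 63.7 CPM in the knockdown (log2 fold change 2.35, SE 0.57, edgeR adjusted p = 0.0324). The controls lay apart, and the log2 fold change of ASF1B was 1.68 without control 1 and 3.93 without control 2. CHAF1B, a subunit of the CAF-1 complex that loads histones behind replication forks, rose by 1.23. RBBP4, another CAF-1 subunit found in many complexes, fell by 1.64 (-0.93 without control 1), and SUPT16H, a subunit of FACT, fell by 0.84. With library size scaling 2 rose and 1 was lower.

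Of the 10 genes of H2A.X signalling in the files, such as the kinase ATM, all were tested and none passed edgeR's threshold in either direction (median -0.10). At an unadjusted p under 0.05, 1 was higher and 1 lower, and 1 was lower by DESeq2. Without control 1, 2 were higher and 1 lower (background 20.3% and 17%), and without control 2, 2 were higher and 4 lower (background 30.5% and 27.6%). Among 11 other histone variant genes in the files, 9 had no read in any library. Only CENPA, the centromeric H3 variant, was tested: it was at 9.06 and 7.80 CPM in the controls and at 27.5, 30.7 and 37.5 CPM in the knockdown (log2 fold change 1.93, SE 0.26, edgeR adjusted p = 0.0140).

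Cell type markers were read for their levels, which give no verdict on the labelled line. Stromal and blood markers had reads in these libraries of 1 labelled line, and why they did was not tested. Of 10 epithelial markers, 9 were tested and 1 rose, KRT8 at 1.78, and the sum over the list was 1041 and 1546 CPM in the controls and 1369 to 1620 CPM in the knockdown. EPCAM was at 82.1 to 168.5 CPM over the libraries and CDH1 at 1.23 to 7.59 CPM. The 8 stromal markers summed to 364.3 and 505.4 CPM in the controls and 502.4 to 562.3 CPM in the knockdown. Of these, COL1A1 was at 159.5 to 197.3 CPM, above EPCAM in every library. From the epithelial list, KRT18 (427.4 to 983.6 CPM) and KRT19 (315.4 to 387.5 CPM) were above COL1A1 in every library. KRT8 (54.9 to 268.4 CPM) lay on both sides of COL1A1, and the other epithelial markers were below it. The 7 blood markers summed to 73.5 and 121.7 CPM against 102.9 to 109.6 CPM, and the 4 endothelial markers to 47.8 and 71.1 CPM against 45.4 to 57.3 CPM. No stromal, blood or endothelial marker passed the threshold by edgeR or DESeq2 (1 stromal marker was lower at an unadjusted p under 0.05). The median log2 fold change of the stromal list was 0.45, or 0.12 without control 1 and 0.91 without control 2. No marker was without reads in all libraries, and CDH5, an endothelial cadherin, had 0 in control 1. All 4 sums were lower in control 1 than in control 2, as were 7 of the 10 replacement genes, and their part in the results was not tested.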

How the data were processed

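Per the labels, 5 poly(A)-primed 3′ end libraries of SW480 cells were sequenced, 2 control and 3 AKAP12 knockdown. The deposited counts are whole reads per gene, made by the authors with featureCounts 1.6.2 on hg38 with no strand option and reads given to every gene they overlap, per the file headers. STAR 2.7 and DESeq2 1.22 are named in the submitters' processing notes. The authors also deposited a results table whose columns give a mean signal over libraries, log2 fold changes with their standard errors, a test score and p-values, per the file headers. The sign of its contrast is not given in the sources used here.

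From the counts, genes were filtered with filterByExpr (minimum count 10), scaled with TMM factors and compared in edgeR 4.0.16 under R 4.3.3 (glmQLFit and glmQLFTest on group alone, two-sided), with p-values adjusted over all 14536 tested genes. SE is the absolute log2 fold change over the square root of F. Counting limits take 3 reads and cover counting error only. By library total without TMM factors they are 0.608 CPM in control 1 and 0.322 to 0.435 CPM elsewhere. On the TMM scale used above, 3 reads in control 1 are 0.735 CPM. Paralog ratios add 0.5 to each count and use an exact permutation test. The procedure was tested on simulated counts.

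Named genes were the 10 members, AKAP12, the 6 HIST genes of highest mean CPM, and up to 4 genes of smallest p past the threshold per list. HIST1H2AE and HIST1H4H are shown for sequence only, and EPCAM, CDH1, COL1A1, KRT8, KRT18, KRT19 and CDH5 as markers. TERT is named for its reads. H3F3AP4, C5orf66, AIFM2 and H1FX-AS1 are named for overlap, and HIST1H4B, HIST1H3H, HIST1H2AK and HIST1H2BO for how they reached the filter (10 reads at the median library total in 2 libraries). The members and lists were chosen with earlier results of these data known. Alternatives were DESeq2 1.42.0, limma-voom (limma 3.58.1), RLE and library size scaling, no filter, a stricter filter (5 CPM in 2 libraries), removal of TERT and short RNA genes, GC offsets (a value for 94.4% of tested genes), the replicate number as a block, and each library left out. Motifs were read from GENCODE release 29 transcripts and RefSeq promoter windows (GRCh38.p14).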

Additional observations from a re-analysis of the deposited data

How the results depend on the processing

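Of 79 values of the 10 genes under other tests, scalings, filters and offsets, 72 kept their direction and side of the threshold, 1 lost its call, 5 gained one and 1 changed direction (H2AFY, 0.16 with library size scaling). H3F3A was not tested under the stricter filter. The number of higher replacement genes ranged from 0 to 6 when a library was left out and the number of lower ones from 0 to 3. Both upper ends came from the fit without control 2, where 30.5% of all tested genes were higher and 27.6% lower. That fit is read for effect sizes only, so these ends are no result for the replacement genes. The number lower was 2 by DESeq2 and 1 each with RLE scaling, no filter and the stricter filter, against 0. When a library was left out, H2AFY ranged from -0.28 to 0.17 and H2AFY2 from -0.65 to 0.11, the sign changing without control 1. The log2 ratio of replacement to HIST reads ranged from 1.45 to 3.37. Over all genes, 3282 passed, from 0 (without a knockdown library, by edgeR, with 3774 to 4109 at an unadjusted p under 0.05; fewer libraries were tested) to 8811 (without control 2). Without control 1, 5658 passed.

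The replicate number as a block left 210 genes past the threshold in all and 2 of the 10, H2AFZ and H2AFX (edgeR adjusted p = 0.0443 each). Same-numbered libraries share only a number, with correlations of their deviations of -0.05 and -0.08. Reads limit H3F3A, and the 2 unlike controls limit H2AFV, H1FX, H2AFZ, H2AFJ, H2AFY and H2AFY2. The causes of these changes were not tested.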
